A study of Mus musculus with 6 samples.

Results

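The heat shock proteins and the DnaJ co-chaperones were taken from the RNA-seq table of MuSCs as the protein-coding genes whose symbols name an Hspa, Hspb, Hspd, Hspe, Hsph or Hsp90 gene, or a Dnaja, Dnajb or Dnajc gene. This gave 68 members, 28 *Hsp* and 40 *Dnaj* genes, among 25166 genes in all, of which 15330 are protein-coding. Symbols alone chose the members, and no measured value entered the choice. Of the 68 members, 62 had a mean signal of at least 5 and were tested, and 6 stayed below it.

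MuSCs are the PAX7-positive stem cells of skeletal muscle, sorted here as Sca1-/CD45-/CD31- and Integrin-a7+/CD34+ cells from C57BL/6 mice, described in the study as 12-week-old males. Both groups hold 3 libraries, each made from RNA of 100 to 200 sorted cells. Sirt6mKO mice are Pax7-ICNCre pos and Sirt6 fl/fl, so that Cre made from the Pax7 promoter, without the need for an inducing drug, acts on floxed *Sirt6*. Controls are named wild type in the labels and Sirt6 fl/fl without Pax7-ICNCre in a legend of the study, and which of these the sequenced controls were is not settled by the sources. The comparison asks how loss of the deacetylase SIRT6 in the Pax7 lineage affects gene expression of MuSCs. Under either description the controls lack Pax7-ICNCre, so effects of this allele and of *Sirt6* loss cannot be told apart.

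Heat shock proteins are molecular chaperones that bind unfolded stretches of other proteins and keep them from aggregating. Hsp70 proteins do so in cycles of ATP hydrolysis, which DnaJ proteins start and to which they deliver substrates, while Hsp110 proteins exchange the nucleotide. Small Hsps hold unfolded proteins without ATP, Hsp90 proteins act on nearly folded clients such as kinases and steroid receptors, and Hsp60 with Hsp10 forms the folding chamber of mitochondria. The transcription factor HSF1 drives the heat-inducible members through heat shock elements, which are inverted repeats of the unit GAA, and enzymatic dissociation of tissue is known to raise such stress genes in freshly isolated cells.

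The values, called signal, are size-factor-normalised reads per gene in whole numbers. Behind the libraries stand 1267027 to 3208460 reads on genes, so that the worth of 1 read in units of signal differs between libraries, from 0.729 to 1.792, and is largest in control replicate 3. *Sirt6* itself stood at 19, 20 and 13 in the Sirt6mKO libraries and at 18, 17 and 20 in the controls (adjusted p = 0.913), which is no check of the deletion, since exons outside the floxed part are counted too. The MuSC gene *Pax7* was at 1841, 2307 and 1810 in Sirt6mKO and at 4066, 3449 and 3150 in control libraries, and *Myf5* was at 850 to 1013 and 897 to 1074. Of the 10 immune markers looked for, 6 had no row, *Ptprc* (CD45) among them, whereas *Cd68* was at 34 to 70. Of the endothelial markers, *Cldn5* was at 0 to 1, *Pecam1* at 4 to 29 and *Tek* at 349 to 562. The erythroid markers with a row were all highest in control replicate 2, with *Hba-a1* at 242 there and at 5 to 36 in the other libraries. In bulk RNA, fewer cells of a type and less RNA per cell cannot be told apart.

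Promoter sequences of the members on which the results turn are shown first. RefSeq windows of GRCm38.p6 were found for 56 of the 68 members. A full heat shock element of 3 units, GAANNTTCNNGAA on either strand, lay within 250 bases before to 50 bases after a start in 4 of the 56 (7.1%), *Hsph1*, *Hspd1*, *Hspe1* and *Dnajb6*, and in 0.66% of all 27025 genes with a window. *Hspd1* and *Hspe1* lie head to head, and their overlapping windows hold the same element, so that these are 3 separate places. The pair GAANNTTC, which is contained in the full element, was present in 14 of the 56 members (25.0%), against 9.04% of all genes. The other pair of the element, TTCNNGAA, was present in 6 of the 56 (10.7%) and in 9.6% of all genes. These matches describe letters in a window and not sites of binding.

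Each window below runs 5′ to 3′ on the strand of the gene, from 250 bases before the annotated start to 30 bases from it, with both kinds of pair in capitals. *Hspb8* (chr5:116422835-116423114, minus strand) and *Hsph1* (chr5:149636286-149636565, minus strand, the one of its 2 windows with more pairs) are the members that passed the adjusted p, and *Hspb1* (chr5:135887669-135887948, plus strand) came nearest to it. *Hspa1b* (chr17:34959209-34959488, minus strand) and *Hspa1a* (chr17:34972127-34972406, minus strand) are among the most abundant members.
Hspb8: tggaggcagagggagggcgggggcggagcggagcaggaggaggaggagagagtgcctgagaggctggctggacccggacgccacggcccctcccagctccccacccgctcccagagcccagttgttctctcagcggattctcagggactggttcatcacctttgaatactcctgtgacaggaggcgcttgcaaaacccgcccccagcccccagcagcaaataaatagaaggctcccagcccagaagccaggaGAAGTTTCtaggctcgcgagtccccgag
Hsph1: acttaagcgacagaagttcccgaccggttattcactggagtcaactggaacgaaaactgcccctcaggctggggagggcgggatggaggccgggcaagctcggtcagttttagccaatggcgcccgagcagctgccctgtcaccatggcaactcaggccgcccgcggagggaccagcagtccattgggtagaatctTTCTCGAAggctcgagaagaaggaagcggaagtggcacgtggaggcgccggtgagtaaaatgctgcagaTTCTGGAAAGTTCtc
Hspb1: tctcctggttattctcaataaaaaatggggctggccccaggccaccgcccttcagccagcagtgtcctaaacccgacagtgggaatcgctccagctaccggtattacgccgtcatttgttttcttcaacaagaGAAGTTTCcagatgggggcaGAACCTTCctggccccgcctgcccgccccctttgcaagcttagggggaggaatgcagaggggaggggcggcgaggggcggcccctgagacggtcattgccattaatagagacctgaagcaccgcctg
Hspa1b: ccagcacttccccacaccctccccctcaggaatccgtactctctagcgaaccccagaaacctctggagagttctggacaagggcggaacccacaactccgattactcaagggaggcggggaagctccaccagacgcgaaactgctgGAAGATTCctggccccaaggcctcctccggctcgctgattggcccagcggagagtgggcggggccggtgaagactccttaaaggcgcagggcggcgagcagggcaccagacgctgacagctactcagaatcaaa
Hspa1a: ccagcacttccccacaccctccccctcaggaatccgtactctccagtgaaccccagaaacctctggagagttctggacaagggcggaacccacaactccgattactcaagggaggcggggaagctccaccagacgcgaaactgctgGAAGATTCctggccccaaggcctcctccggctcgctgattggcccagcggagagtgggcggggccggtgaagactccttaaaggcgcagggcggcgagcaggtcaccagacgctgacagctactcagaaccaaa

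In *Hsph1* a run of 3 units lies just after the start and a further pair 54 bases before it. *Hspb1* has pairs 117 and 97 bases before its start, and the single pair of *Hspb8* lies at its start. The windows of *Hspa1a* and *Hspa1b* have 276 of 280 aligned bases in common (98.6%), with their pair at the same place, 104 bases before the start.

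Chaperone transcripts were abundant in these MuSCs of either genotype. The 68 members together took 1.98, 1.74 and 1.6% of all signal in Sirt6mKO replicates 1, 2 and 3, whereas the control libraries gave 1.54, 1.69 and 1.51%. By mean signal over the 6 libraries, *Hspa1b* stood at rank 13 among all genes, *Hsp90ab1* at 15, *Hspa1a* at 16, *Hsph1* at 19 and *Hspa8* at 23. Thus the heat-inducible *Hspa1a* and *Hspa1b* stood in the same range as *Hspa8* and *Hsp90ab1*, the Hsp70 and Hsp90 that cells make without stress.

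For levels between genes, control signal was divided by the exon length of each gene. On this scale *Hsp90ab1* led with 1668 per kb, followed by *Hspa1a* with 1555 and *Hspa1b* with 1536. The control libraries ranged from 1154 to 1793 for *Hspa1a* and from 1171 to 1737 for *Hspa1b*, so that these neighbours do not differ beyond their spread. *Hspa8* stood at 1054, *Hsph1* at 480.7, the ER Hsp90 *Hsp90b1* at 477.2, *Hsp90aa1* at 409.2, *Dnajb1* at 327.8 and *Hspa5*, the Hsp70 of the ER, at 292.7 per kb. The small Hsps ran from 148.7 for *Hspb1* to 0 for *Hspb3*. The *Dnaj* genes other than *Dnajb1* were all below 100 per kb.

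**Figure D1:**
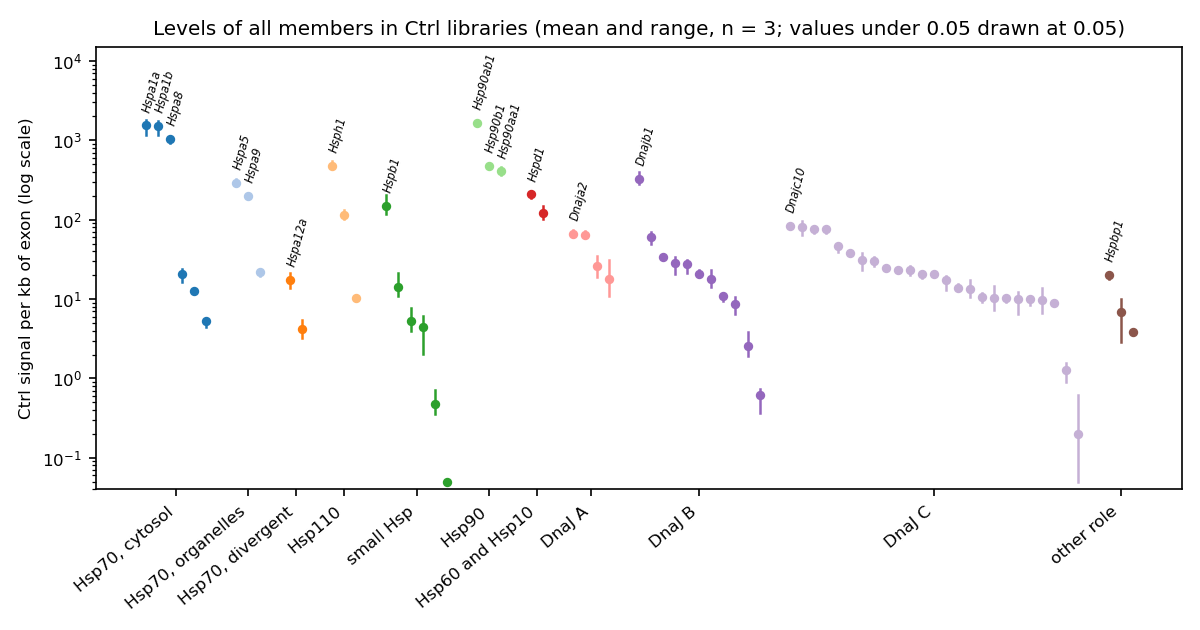
Control (Ctrl) signal per kb of exon on a log axis for all 68 members, grouped by class; points are means and lines the range of the 3 control libraries. *Hspa1a*, *Hspa1b*, *Hspa8* and *Hsp90ab1* lie above 1000 per kb, and *Hspb3*, at 0, is drawn at 0.05.

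Reads that align in more than 1 place were left out by the authors, so members with close copies are undercounted to an unknown degree. Of the distinct 75-base words of *Hspa1a* transcripts, 61.7% also occur in another gene, chiefly *Hspa1b*. The share was 55.8% for *Hspa1b*, 46.4% for *Hspb1* (pseudogene *Hsp25-ps1*), 42.8% for *Hsp90aa1*, 33.0% for *Hspa8* and 31.0% for *Hspd1*. It was 0.5% for *Hsp90ab1* and 0 for *Hsph1*, *Hspb8*, *Hspa2*, *Hspa5* and *Dnajb1*. The values of *Hspa1a* and *Hspa1b* are therefore uncertain as a split between both genes. Whether *Hsp90ab1* truly stands above them per kb is not settled, since its reads are hardly affected.

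The comparison of the genotypes found 2 members higher in Sirt6mKO MuSCs and none lower. With limma-trend on log2(signal + 1) over all 14227 tested genes, 1 member, *Hspb8*, passed the adjusted p (0.05 or less) with at least a 2-fold difference, beside 223 genes (1.57%) called higher in all. With the adjusted p alone, *Hspb8* and *Hsph1* passed, that is 2 of 62 members, beside 376 genes (2.64%) in all. No member was called lower, beside 145 genes (1.02%) with the fold change and 267 genes (1.88%) without it. At an unadjusted p under 0.05 there were 11 members higher and 2 lower, beside 1419 genes (9.97%) higher and 1158 genes (8.14%) lower in all. Without Sirt6mKO replicate 1 no member passed, with an adjusted p of 0.0545 for *Hspb8* and of 0.101 for *Hsph1*, and without control replicate 2 4 members passed, the others being *Hspb1* and *Dnaja4*. The share of all genes that passed in these fits is not given.

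*Hspb8*, a small Hsp that works with the co-chaperone BAG3 in chaperone-assisted autophagy of damaged muscle proteins, showed the largest change of the tested members. Its gene lies at chr5:116408491-116422864 (GRCm38). Signal in the Sirt6mKO libraries 1, 2 and 3 was 59, 39 and 35, whereas the control libraries held 10, 12 and 4. Every Sirt6mKO library lay well above the highest control, with a log2 fold change of 2.31 (SE 0.38, adjusted p = 0.00473). The level was nevertheless low on the scale of the class, at 4.44 per kb in control and 22.7 per kb in Sirt6mKO MuSCs. The control values of 4 and 10 correspond to few reads. The value of 4, in control replicate 3, lies below the signal of 3 reads in that library, 5.38. The log2 fold change ranged from 1.87 to 2.58 over the alternatives and was 1.89 without control replicate 3.

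*Hsph1*, the heat-inducible Hsp110 that exchanges the nucleotide of Hsp70, rose from a far higher level. Its gene lies at chr5:149614287-149636376. Sirt6mKO libraries held 6229, 6333 and 4672, and control libraries 3391, 3946 and 3142. The groups did not overlap, and the log2 fold change was 0.71 (SE 0.145, adjusted p = 0.0151), below a doubling. Its adjusted p was 0.0928 without Sirt6mKO replicate 2.

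The other Hsp110 genes did not pass the test. *Hspa4l*, also heat-inducible, had a signal of 151, 150 and 161 in Sirt6mKO and of 119, 119 and 124 in control libraries, without overlap and with little spread (log2 fold change 0.35, SE 0.126, adjusted p = 0.156). *Hspa4*, the constitutive form, had 584, 478 and 542 against 595, 740 and 563 (adjusted p = 0.369). The estimates of these relatives thus differed in sign, and no difference between them was tested.

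**Figure D2:**
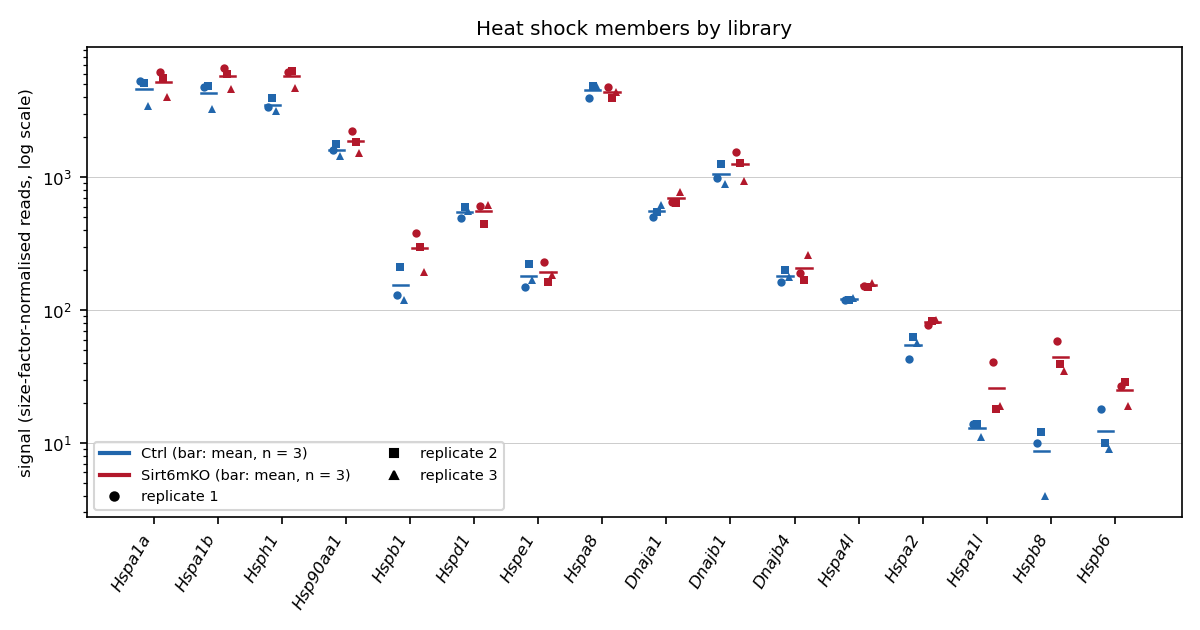
Signal of 16 members in each library on a log axis, with blue for control (Ctrl), red for Sirt6mKO, a bar at the mean of 3 libraries and a symbol for each replicate. *Hspb8*, *Hsph1*, *Hspb6*, *Hspa1l*, *Hspa2*, *Hspa4l* and *Dnaja1* have every red point above every blue point. For *Hspa1a*, *Hspa1b*, *Hsp90aa1*, *Hspb1*, *Dnajb1*, *Hsph1*, *Hspb8* and *Hspb6* the triangle of replicate 3 is the lowest of its group in both colours.

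None of the 3 other tested small Hsps passed the test, with 2 estimates above 0 and 1 below. *Hspb1*, the actin-protecting HSP25, had values of 382, 301 and 193 in the Sirt6mKO libraries, whereas the controls had 129, 211 and 120. Sirt6mKO replicate 3 lay below control replicate 2, so the groups overlapped (log2 fold change 0.92, SE 0.245, adjusted p = 0.0546). This value sits at the threshold and passed under 6 of 19 alternatives, with an adjusted p between 0.0147 and 0.272. *Hsp25-ps1*, the pseudogene that shares its sequence, had 13, 7 and 9 against 1, 9 and 2.

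*Hspb6*, a small Hsp of striated and smooth muscle, had a signal of 27, 29 and 19 in Sirt6mKO and of 18, 10 and 9 in control libraries, without overlap but with an adjusted p of 0.126 (log2 fold change 1.00, SE 0.336). *Hspb2*, which overlaps *Cryab* on the opposite strand, had 8, 13 and 6 against 9, 9 and 18 (adjusted p = 0.712). *Hspb7*, a cardiac and skeletal muscle form, was below the filter with 7, 6 and 3 against 1, 1 and 2, and *Hspb3* had a signal of 2 in a single library. The relative *Cryab*, alpha B-crystallin, had 281, 250 and 223 against 216, 183 and 165, without overlap (adjusted p = 0.122). In the class of small Hsps 3 of 4 tested members had estimates above 0, and their median was 0.96 (log2), beside 7173 of the 14227 tested genes and a median of 0.002 over all.

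Several of these small Hsps are muscle proteins, and markers of myofibers moved with the genotype. Of 19 tested myofiber markers, 7 were higher in Sirt6mKO at the adjusted p and none lower, and the summed signal of the list was 2826 to 4763 in Sirt6mKO and 1982 to 2294 in control libraries. The fiber genes were uneven between Sirt6mKO libraries, with *Acta1* at 548, 656 and 143 against 118, 131 and 93, and *Ckm* at 165, 186 and 27 against 31, 31 and 23. Sirt6mKO replicates 1, 2 and 3 lay above every control library for 16, 17 and 9 of the 19 markers. In the same libraries *Hspb8* was at 59, 39 and 35, against 10, 12 and 4 in the controls. Of 9 tested fibroblast markers, 4 were also higher, with *Col1a2* at 782, 1299 and 1162 against 173, 63 and 65, while *Ly6a* (Sca1) was at 0 to 2 in all libraries. The part of other cells in the signal of the small Hsps was not tested.

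Of the cytosolic Hsp70 genes none passed the test. *Hspa1a*, an inducible Hsp70, had a signal of 6150, 5574 and 4005 in Sirt6mKO and of 5321, 5096 and 3424 in control replicates. The groups overlapped, with a log2 fold change of 0.19 (SE 0.19, adjusted p = 0.67). *Hspa1b*, its near-identical neighbour, had 6599, 6023 and 4622 against 4768, 4868 and 3282 (log2 fold change 0.42, SE 0.174, adjusted p = 0.219). The sum of both genes was 12749, 11597 and 8627 against 10089, 9964 and 6706, so that Sirt6mKO replicate 3 lay below both control replicates 1 and 2.

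The constitutive *Hspa8* had a signal of 4775, 3917 and 4392 in Sirt6mKO and of 3927, 4875 and 4801 in control libraries, which overlapped nearly completely (log2 fold change -0.05, SE 0.13, adjusted p = 0.886). *Hspa2*, best known from spermatogenesis, had 77, 83 and 84 against 43, 63 and 57, without overlap (log2 fold change 0.59, SE 0.184, adjusted p = 0.0987). *Hspa1l* had 41, 18 and 19 against 14, 14 and 11 (adjusted p = 0.215). The antisense gene *Gm10501* covers 71.9% of the exon bases of *Hspa1l*, and whether strand was used in counting is not given in the sources used here, so their reads cannot be told apart. *Hspa14*, which works at the ribosome, had 57, 46 and 54 against 47, 53 and 54 (adjusted p = 0.97).

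In the ER and mitochondria, *Hspa5* had 1580, 1308 and 1391 against 1157, 1395 and 1162 (adjusted p = 0.403) and *Hspa9*, the mitochondrial Hsp70, had 968, 907 and 1024 against 822, 924 and 837 (adjusted p = 0.452). *Hspa13*, a microsomal form, had an adjusted p of 0.419. All 3 estimates were above 0, between 0.17 and 0.26 on the log2 scale, and each gene's groups overlapped. The divergent *Hspa12a* and *Hspa12b* had 116, 120 and 169 against 127, 159 and 195, and 27, 23 and 14 against 12, 15 and 20, with adjusted p of 0.542 and 0.584.

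Hsp90 and the mitochondrial chaperonin showed no detectable difference. *Hsp90ab1*, the constitutive cytosolic form, had 5332, 4467 and 4785 against 4561, 5043 and 5399 (adjusted p = 0.912). *Hsp90aa1*, the inducible form, had 2229, 1826 and 1532 against 1594, 1791 and 1441 (log2 fold change 0.20, SE 0.142, adjusted p = 0.513), and *Hsp90b1* had an adjusted p of 0.74. *Hspd1* (Hsp60) had 607, 441 and 617 against 493, 601 and 554, and *Hspe1* (Hsp10) had 230, 163 and 183 against 149, 222 and 169. These genes lie head to head on chromosome 1 and overlap by 112 exon bases, and their adjusted p were 0.995 and 0.83.

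**Figure D3:**
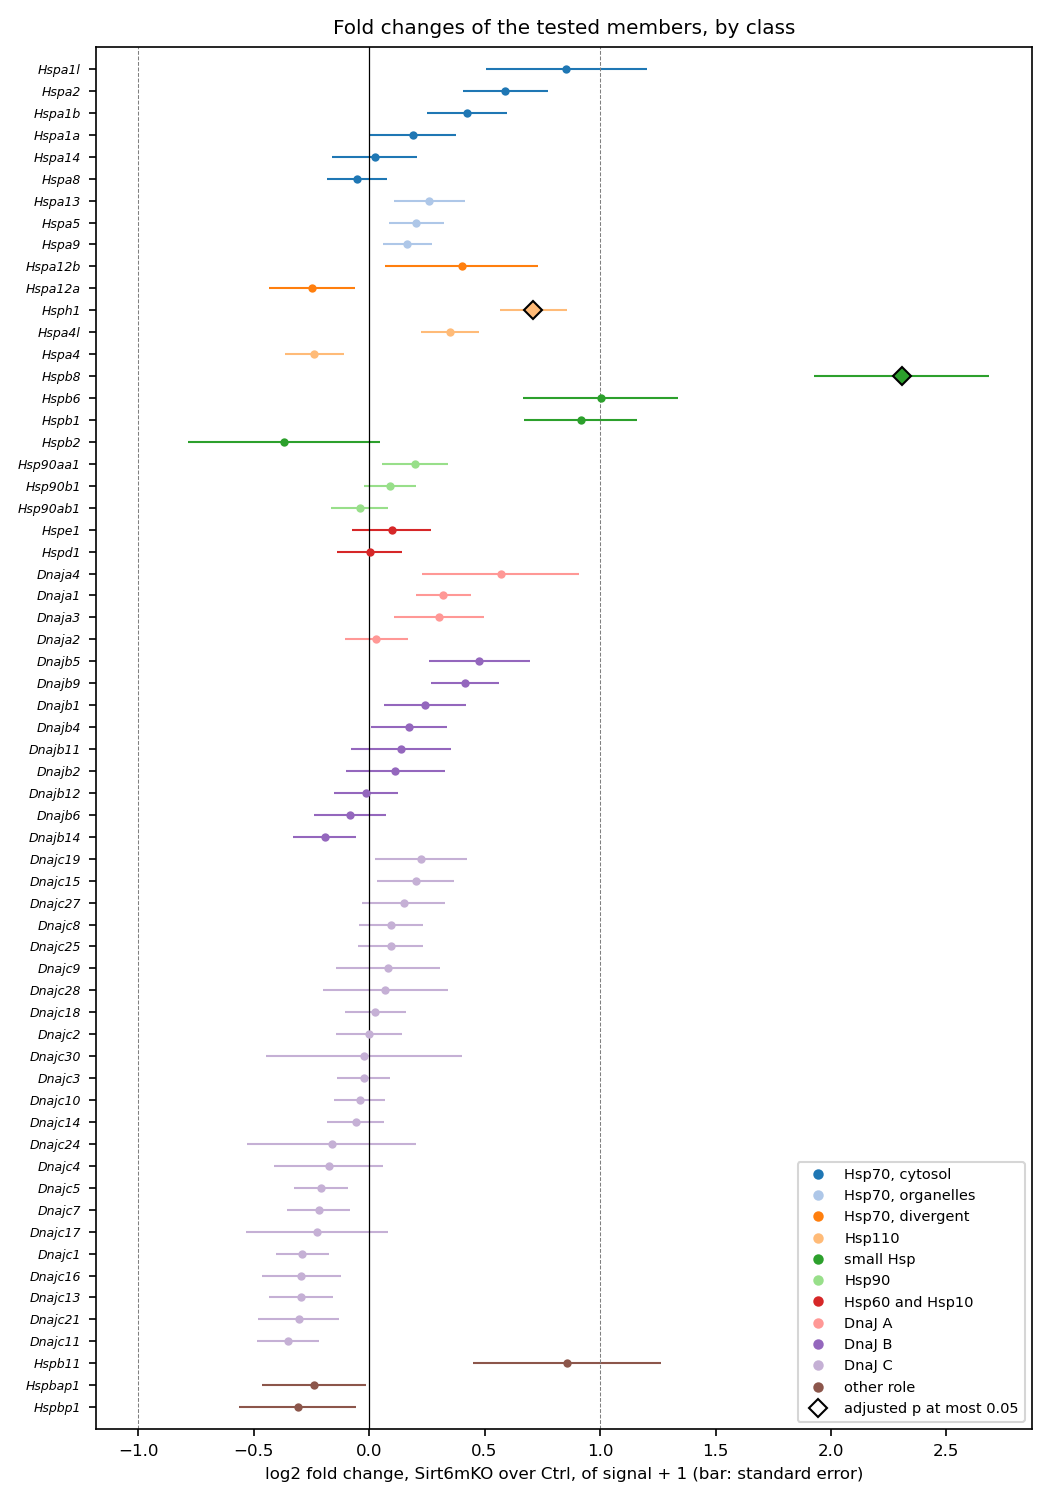
Log2 fold change of signal + 1, Sirt6mKO over control, with its standard error for each of the 62 tested members, coloured by class; large diamonds mark an adjusted p of at most 0.05 and dashed lines a 2-fold change. *Hspb8* and *Hsph1* are the marked members, and most *Dnajc* genes lie at or left of 0.

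Among the *Dnaj* genes none of 36 tested members passed, with 19 estimates above 0, 17 below and a median of 0.01 (log2). The inducible *Dnajb1*, the main partner of Hsp70 under stress, had a signal of 1561, 1281 and 930 in Sirt6mKO and of 994, 1264 and 893 in control libraries (log2 fold change 0.24, SE 0.178, adjusted p = 0.527). *Dnaja1*, a farnesylated partner of HSPA8, had 655, 644 and 780 against 504, 544 and 615, without overlap (log2 fold change 0.32, SE 0.12, adjusted p = 0.172). *Dnaja2* had 229, 175 and 203 against 191, 220 and 181 (adjusted p = 0.939). *Dnaja4* had 95, 104 and 62 against 42, 112 and 39, so that control replicate 2 stood above every Sirt6mKO library, and 44.1% of its exon bases lie opposite *Wdr61*. The estimate of *Dnaja4* was 0.57 with all libraries (adjusted p = 0.423) and 1.05 without control replicate 2 (adjusted p = 0.0444).

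The other *Dnaja* and *Dnajb* genes named here did not pass the test. The mitochondrial *Dnaja3* had 113, 128 and 130 against 98, 136 and 75 (adjusted p = 0.467), and *Dnajb5* had 73, 84 and 59 against 63, 55 and 38 (adjusted p = 0.275). *Dnajb4* and *Dnajb12* had adjusted p of 0.646 and 0.977. *Dnajb6*, a suppressor of aggregation with a full heat shock element, had 146, 163 and 153 against 177, 190 and 129 (adjusted p = 0.841).

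The ER members were described with the ER stress element, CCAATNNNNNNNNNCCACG, which was found in the windows of *Hspa5*, *Hsp90b1* and *Dnajc3* (5.4% of 56 members) and of 0.14% of all genes. None of these 3 genes passed the test, and *Dnajc3*, an inhibitor of the kinase PERK, had 409, 372 and 372 against 417, 407 and 350. *Dnajb9*, a cofactor of HSPA5 in the degradation of misfolded ER proteins, had 102, 120 and 128 against 92, 85 and 84, without overlap (log2 fold change 0.41, SE 0.148, adjusted p = 0.153). *Dnajc10*, an ER disulfide reductase, had an adjusted p of 0.9. *Dnajc1*, an ER membrane J-protein, had 200, 194 and 189 against 226, 243 and 244, without overlap in the other direction (log2 fold change -0.29, SE 0.114, adjusted p = 0.199).

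The *Dnajc* class, in which the J domain sits in otherwise unrelated proteins, had 9 of 23 estimates above 0 and 14 below, with a median of -0.04. *Dnajc11*, a protein of the mitochondrial cristae organising complex, had 121, 112 and 115 against 135, 148 and 163 (log2 fold change -0.35, SE 0.134, adjusted p = 0.183). *Dnajc13*, which acts in endosome sorting, had 724, 812 and 808 against 766, 1000 and 1145 (adjusted p = 0.292). *Dnajc5*, the cysteine string protein of secretory vesicles, had 221, 252 and 218 against 255, 273 and 269 (adjusted p = 0.384), and *Dnajc16* had 56, 55 and 52 against 73, 60 and 68 (adjusted p = 0.409). Sirt6mKO libraries lay below all controls for *Dnajc1*, *Dnajc5*, *Dnajc11* and *Dnajc16*, and above them for *Dnajc15* and *Dnajc19*, both linked to the mitochondrial import motor (adjusted p of 0.588 and 0.614). The 17 tested *Dnajb* and *Dnajc* genes not named so far had a signal of 8 to 250, log2 fold changes between -0.31 and 0.15, and adjusted p of at least 0.399, with 9 estimates above 0 and 8 below.

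In all, the Sirt6mKO libraries lay above every control library for 10 of the 62 tested members and below every control library for 4. The same held for 11.1 and 10.1% of all tested genes. The 10 are *Hspb8*, *Hsph1*, *Hspb6*, *Hspa1l*, *Hspa2*, *Dnajb9*, *Hspa4l*, *Dnaja1*, *Dnajc15* and *Dnajc19*, and those of them that are named only for this separation, like the 4 below, were chosen after their values were seen. With 3 libraries against 3, an exact two-sided permutation test of a single gene cannot go below 0.1, and this was its value for each of these 14 members. The *Hsp* members had 19 of 26 estimates above 0, with a median of 0.19, beside 7173 of the 14227 tested genes and a median of 0.002 over all.

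A list of 12 members of the heat-inducible response held *Hspa1a*, *Hspa1b*, *Hsph1*, *Hsp90aa1*, *Hspb1*, *Hspd1*, *Hspe1*, *Dnaja1*, *Dnajb1*, *Dnajb4*, *Hspa4l* and the mainly constitutive *Hspa8*. Of these, 11 had estimates above 0 and 1, *Hspa8*, below 0, with a median of 0.22 (log2) and of 0.24 without *Hspa8*, and 1 of the 12, *Hsph1*, passed the adjusted p. Over all 14227 tested genes, 7173 estimates were above 0 and 376 genes (2.64%) passed as higher. The list took 1.28, 1.13 and 0.96% of all signal in Sirt6mKO replicates 1, 2 and 3 and 0.92, 1.01 and 0.82% in control replicates, so that Sirt6mKO replicate 3 lay within the control range, as it did without *Hspa8* at 0.768% against 0.614 to 0.806%. Of 21 tested immediate early genes, which tissue dissociation also raises, 9 were higher in Sirt6mKO at the adjusted p and none lower, with a median of 0.63. *Fos* was at 3442, 3757 and 4355 against 1951, 2632 and 2302, and the summed signal of the list at 18387 to 21160 against 11657 to 14215. For 13 of these 21 genes every Sirt6mKO library lay above every control library, and for none below. The part of the immediate early genes in the values of the heat-inducible members was not tested.

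**Figure D4:**
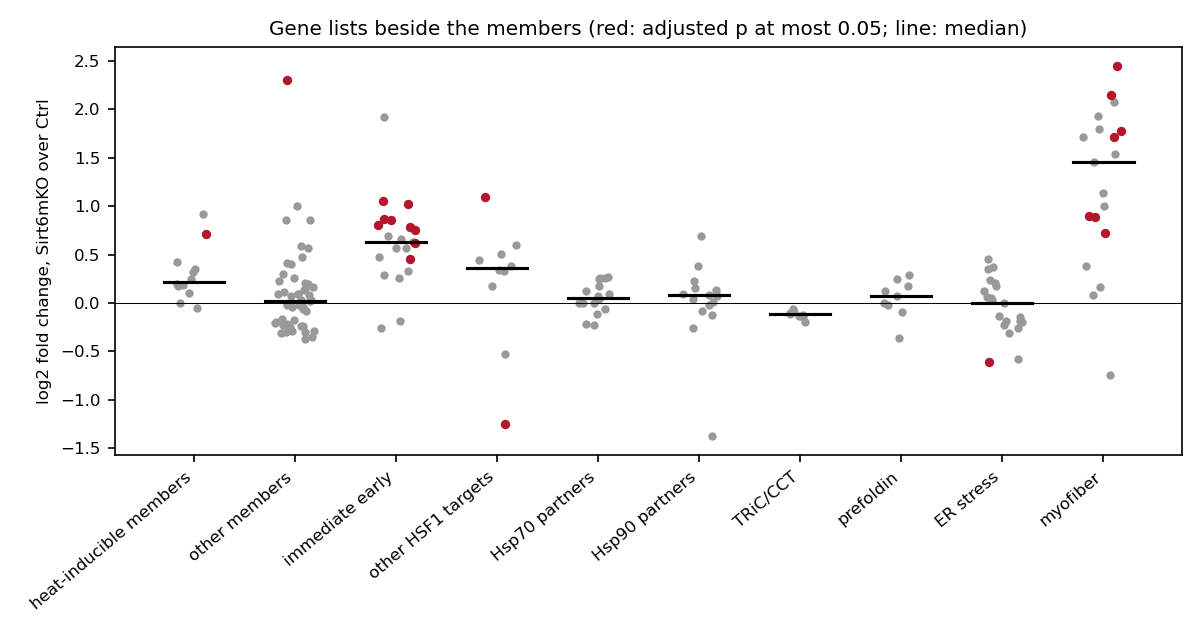
Log2 fold change, Sirt6mKO over control, of each tested gene in 10 lists, with red points for an adjusted p of at most 0.05 and a line at the median. Immediate early genes (median 0.63) and myofiber markers (median 1.46) hold most red points, whereas the heat-inducible members (median 0.22) hold 1 and the other members 1.

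The 3 members named for other roles were *Hspb11*, a protein of intraflagellar transport, *Hspbp1*, a nucleotide exchange factor of Hsp70, and *Hspbap1*, which binds HSPB1. *Hspb11* had 24, 19 and 30 against 6, 21 and 16 (log2 fold change 0.86, SE 0.407, adjusted p = 0.293), and the estimate was 0.37 without control replicate 1. *Hspbp1* had 25, 43 and 26 against 38, 42 and 34, and *Hspbap1* had 32, 36 and 25 against 36, 37 and 36, with adjusted p of 0.583 and 0.646. The members below the filter were *Hspb7*, *Hspb3*, *Dnajb3*, *Dnajb13*, *Dnajc12* and *Dnajc5g*, with a signal of 0 to 7 in every library.

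Regulators and partners of the chaperones were read from lists of 103 genes, of which 98 were tested. At the adjusted p, 1 of the 98 was higher and 2 were lower. Over all tested genes, 376 (2.64%) were higher and 267 (1.88%) lower. *Mt1*, a metallothionein induced by metals and stress, had 78, 96 and 84 in Sirt6mKO and 54, 36 and 32 in control libraries (log2 fold change 1.09, adjusted p = 0.0124). *Rgs2*, a regulator of G protein signaling induced by heat, had 47, 69 and 68 against 102, 153 and 197 (log2 fold change -1.25, adjusted p = 0.00881). *Xbp1*, the transcription factor of the ER stress response, had 309, 246 and 231 against 339, 448 and 411 (log2 fold change -0.61, adjusted p = 0.0316). The median over the 98 genes was 0.04, and the number past the adjusted p was 1 without Sirt6mKO replicate 1 and 1 without Sirt6mKO replicate 2.

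*Hsf1*, the factor that drives the heat shock response, had a signal of 151, 142 and 127 in Sirt6mKO and of 166, 192 and 158 in control libraries, without overlap (log2 fold change -0.29, SE 0.136, adjusted p = 0.277). *Bag3*, a partner of HSPB8 and itself a target of HSF1, had 633, 589 and 415 against 536, 617 and 434 (log2 fold change 0.04, SE 0.167, adjusted p = 0.943), so that the partner of the most changed member showed no detectable difference. None of 16 partners of Hsp70 and none of 16 partners of Hsp90 passed, with medians of 0.05 and 0.08. The 10 tested genes listed as other targets of HSF1 had a median of 0.36, with 8 estimates above 0 and 2 below. *Mt1*, higher, and *Rgs2*, lower, are the genes of that list that passed. The 8 tested subunits of the cytosolic chaperonin TRiC/CCT all had estimates below 0, between -0.20 and -0.07, and none passed. The prefoldin list, which feeds TRiC/CCT, had a median of 0.07 and the ER stress list a median of 0.00, with *Xbp1* as the single gene that passed in them.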

How the data were processed

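The 6 RNA-seq libraries of sorted MuSCs, 3 of Sirt6mKO and 3 of control samples, were grouped by the labels. The study calls its RNA-seq replicates biological. Its methods give 2 for RNA-seq in general, whereas its legend on Sirt6mKO and control MuSCs gives 3, as the labels do. The labels do not say whether the replicates are separate mice. If they are not, p-values measure only the spread between these samples, which may be technical. For preparation, the labels give RiboGone and the SMARTer Stranded kit with 75-base single-end reads, whereas the methods name RiboMinus and an Ion Total RNA-Seq kit. According to the methods, the authors trimmed with Reaper, aligned to mm10 with STAR, counted reads per gene with featureCounts without reads on several genes or places, and tested with DESeq2, while the submitters' processing notes list Trimmomatic 0.39, STAR 2.7.10a, featureCounts 2.0.2 and DESeq2 1.30.1. The deposited signal is whole numbers, but not read counts. It fits reads divided by a factor per library and rounded by the authors, with factors of 0.558 to 1.3715 recovered from the gaps between values, and the 3-read limit of a gene is a signal of 2.19 to 5.38, which covers counting error only.

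From the signal, log2(signal + 1) of genes with a mean of at least 5 was fitted with limma-trend (limma 3.58.1, R 4.3.3) with no covariates, two-sided, with Benjamini-Hochberg adjustment over 14227 genes. Genes were called at an adjusted p up to 0.05 with at least a 2-fold difference, after the methods of the study, and fold changes on this scale understate those of low genes. The procedure was also run on simulated data, with the same added spread for every gene and no changes among low genes. This does not show how it finds changes in low or unevenly spread genes. Exon lengths, overlaps and 75-base words came from GENCODE M21 of GRCm38, in which all 68 members were found, 66 with the same start and end. Tables and plots used Python 3.11.15, pandas 2.3.3 and matplotlib 3.10.9. Named members are the 4 markers *Hspa1a*, *Hspa1b*, *Hspa8* and *Dnajb1*, those past the adjusted p, the 2 most abundant of each class and the 10 of largest fold change, and further ones were chosen after their values were seen. The members, classes and gene lists were chosen with earlier results of these data known. Alternatives covered scaling, model, filter, pseudocount, the replicate number as a block, and leaving out each library. Pseudogenes (2 symbols) were left out.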

Additional observations from a re-analysis of the deposited data

How the results depend on the processing

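Over 19 alternatives, *Hspb8* passed the adjusted p in 17 of 18 in which it was tested and *Hsph1* in 17 of 19, and neither changed direction. Members called higher numbered 1, and 0 with a mean signal of at least 50, which leaves *Hspb8* out, with a range of 0 to 3 when 1 library was left out (0 without Sirt6mKO replicate 1, 2 without Sirt6mKO replicate 3 and 3 without control replicate 2). At the adjusted p alone there were 2, and 1 with a mean of at least 50, with a range of 0 to 4 (0 without Sirt6mKO replicate 1, 1 without Sirt6mKO replicate 2 and 4 without control replicate 2). Partner and pathway genes past both thresholds numbered 2, with a range of 0 to 2 when 1 library was left out (0 without Sirt6mKO replicate 1, and 1 without Sirt6mKO replicate 2 or control replicate 3). At the adjusted p alone they numbered 3, with a range of 1 to 4 (1 without Sirt6mKO replicate 1 or 2). The share of all genes that passed in each of these fits is not given, so the shifts are not shown to be particular to the members or partners. The cause of these shifts was not tested. No member was lower at the adjusted p under any alternative.

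The labels do not say whether replicate numbers pair the samples, and the main fit used no pairing. Correlations of deviations were 0.02, 0.07 and 0.19 between libraries of the same number and -0.129 to 0.073 between libraries of different numbers. These values do not settle whether samples were paired. With the replicate number as a block, 5 partner and pathway genes passed the adjusted p, and *Hspb1* passed (adjusted p = 0.0147) beside *Hspb8* and *Hsph1*. *Hspb1* also passed with upper quartile scaling (0.0455), a mean of at least 1 (0.042), a pseudocount of 5 (0.0465), and without Sirt6mKO replicate 3 (0.0164) or control replicate 2 (0.0284).

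Members that changed sign all had an adjusted p of at least 0.646 with all libraries. *Hspd1* (0.003) turned to -0.011 with upper quartiles, -0.015 with library totals, -0.015 on log2 CPM and -0.005 with voom. When 1 library was left out, log2 fold changes ranged from -0.061 to 0.132 for *Dnaja2*, -0.155 to 0.09 for *Dnajb12*, -0.01 to 0.30 for *Dnajb4*, -0.252 to 0.026 for *Dnajb6*, -0.101 to 0.025 for *Dnajc3*, -0.11 to 0.018 for *Hsp90ab1*, -0.039 to 0.113 for *Hspa14*, -0.013 to 0.371 for *Hspa1a*, -0.154 to 0.021 for *Hspa8*, -0.082 to 0.16 for *Hspd1* and -0.039 to 0.259 for *Hspe1*. Scalings moved the median of all genes by at most 0.018. Depth sets the steps of low members: in control replicate 3, 1 read is a signal of 1.792.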

Other observations

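In 6 of the 12 heat-inducible members, *Dnajb1*, *Hsp90aa1*, *Hspa1a*, *Hspa1b*, *Hspb1* and *Hsph1*, replicate 3 was the lowest library in both groups. The same held for 6 of the 50 other tested members, for 2038 of the 14227 tested genes (14.3%), and for 1 of 21 immediate early genes. *Hspa1a* and *Hspa1b* together took 0.547, 0.489 and 0.369% of all signal in Sirt6mKO replicates 1, 2 and 3 and 0.432, 0.426 and 0.295% in control replicates, while the 40 *Dnaj* genes took 0.285 to 0.313% in every library.

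*Unc45b*, a myosin chaperone of striated muscle that works with Hsp90, was at 2, 4 and 2 in Sirt6mKO and at 10, 8 and 7 in control libraries (adjusted p = 0.133). Its Sirt6mKO values lie at or near the 3-read limit of these libraries, a signal of 2.24 to 2.84. Of 19 tested myofiber markers, 18 had estimates above 0 and 1 below, with *Ttn* at 819, 917 and 657 against 451, 321 and 518 (adjusted p = 0.0103). *Fkbp5*, a co-chaperone of Hsp90 and a known glucocorticoid target, was at 238, 199 and 166 against 160, 100 and 115, without overlap (log2 fold change 0.69, adjusted p = 0.0544). These genes were chosen after their values were seen.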
